A study of Mus musculus with 16 samples.

Results

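The genes described here encode the subunits of the muscle nicotinic acetylcholine receptor: *Chrna1*, *Chrnb1*, *Chrnd*, *Chrne* and *Chrng*. They were taken by gene symbol, 5 of the 24421 genes in the count tables, and the set was chosen from genes whose genotype results in these data were already known, so every LSD1-mKO against WT value of a member is a description without a test. Gas (gastrocnemius, dominated by fast fibers) and Sol (soleus, dominated by slow fibers) muscles were taken from male C57BL/6 mice, with 3 WT and 5 LSD1-mKO libraries in each muscle. LSD1-mKO mice carried *Lsd1*-floxed alleles and a CreERT2 transgene driven by the human ACTA1 promoter, which is active in differentiating and differentiated muscle cells, whereas WT mice carried the floxed alleles without CreERT2, so that the loss of LSD1 and the presence of the recombinase cannot be told apart. All mice, 8 weeks old, received tamoxifen at 75 mg/kg for 5 days and dexamethasone, a glucocorticoid, at 1 mg/kg for 7 days, beginning on the fourth tamoxifen day, and no untreated group was analysed here.

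The receptor is a pentameric cation channel that opens when acetylcholine is released from the motor nerve terminal. It contains a pair of alpha subunits, which hold most of the acetylcholine binding site, together with beta, delta and either gamma or epsilon. Gamma (*Chrng*) is the fetal subunit and is replaced by epsilon (*Chrne*) as the neuromuscular junction matures, and in innervated adult fibers the nuclei under the endplate transcribe the subunit genes while the rest of the fiber is kept nearly silent. Loss of innervation or of electrical activity is known to bring back transcription along the fiber, in which myogenic factors that bind E-boxes (CANNTG) take part. At the endplate, ETS factors act through the N-box (CCGGAA), which is best known from the epsilon gene.

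On GRCm38 with the GENCODE annotation, *Chrna1* lies at chr2:73563215-73580338 on the minus strand and *Chrnb1* at chr11:69784036-69795943 on the minus strand. *Chrne* lies at chr11:70614883-70619216 on the minus strand, where it overlaps *4930544D05Rik* on the opposite strand, a gene with 1 to 16 reads per library. *Chrnd* (chr1:87190607-87200070) and *Chrng* (chr1:87204657-87212694) are neighbors on the plus strand, separated by 4586 bases. RefSeq start-site windows on GRCm38.p6 matched 4 of the 5 members, without *Chrnd*. The *Chrng* window lies inside the GENCODE interval given above, so RefSeq and GENCODE place its start differently. The 4586 bases refer to the GENCODE intervals. The 250 bases before each start are shown, so that matches to the E-box and N-box patterns named above can be seen. Capitals mark each CANNTG and each CCGGAA, the latter searched on both strands, and the former is its own complement.
*Chrna1*, chr2:73580339-73580588, minus strand: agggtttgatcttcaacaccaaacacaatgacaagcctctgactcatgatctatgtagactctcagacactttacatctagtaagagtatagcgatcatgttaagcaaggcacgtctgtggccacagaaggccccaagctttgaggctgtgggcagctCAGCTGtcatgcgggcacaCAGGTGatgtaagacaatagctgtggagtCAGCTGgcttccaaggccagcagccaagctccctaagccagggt
*Chrnb1*, chr11:69795938-69796187, minus strand: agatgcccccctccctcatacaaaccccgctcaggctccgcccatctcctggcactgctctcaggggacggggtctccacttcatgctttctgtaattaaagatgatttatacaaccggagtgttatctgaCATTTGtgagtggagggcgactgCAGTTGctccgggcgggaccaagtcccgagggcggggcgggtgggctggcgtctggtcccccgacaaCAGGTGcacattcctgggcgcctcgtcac
*Chrne*, chr11:70619195-70619444, minus strand: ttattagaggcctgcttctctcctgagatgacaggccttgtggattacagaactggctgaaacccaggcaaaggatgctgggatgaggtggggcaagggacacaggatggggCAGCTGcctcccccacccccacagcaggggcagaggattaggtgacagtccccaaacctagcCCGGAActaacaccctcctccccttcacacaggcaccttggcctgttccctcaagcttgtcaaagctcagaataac
*Chrng*, chr1:87205561-87205810, plus strand: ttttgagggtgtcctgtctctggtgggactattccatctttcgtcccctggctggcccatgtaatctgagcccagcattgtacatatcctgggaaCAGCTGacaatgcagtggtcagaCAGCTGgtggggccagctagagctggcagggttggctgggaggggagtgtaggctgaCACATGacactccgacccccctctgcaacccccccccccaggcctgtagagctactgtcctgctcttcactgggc
*Chrna1*, *Chrnb1* and *Chrng* each had 3 matches to CANNTG, and *Chrne* had 1. Among 32851 RefSeq windows of 300 bases (250 before and 50 after the start), 72.3% held CANNTG at least once and 17.6% at least 3 times. The E-box CAGCTG, a subset of CANNTG, occurred at 2 places in *Chrna1*, 2 in *Chrng*, 1 in *Chrne* and 0 in *Chrnb1*, against 16.3% of all windows with any match. CCGGAA was found in *Chrne*, 76 bases before the start, and in 14.9% of all windows. These matches are letters in a window and not measured binding sites.

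Libraries held 10130415 to 24576377 reads assigned to genes. *Kdm1a*, the gene of LSD1, had 37.8 to 44.2 CPM (reads scaled to the size of the library) in WT and 11.9 to 17.9 CPM in LSD1-mKO Gas, and 33.5 to 34.5 CPM in WT and 9.12 to 12.8 CPM in LSD1-mKO Sol, without overlap between genotypes. Fiber genes separated the muscles: *Myh4*, the fast IIb myosin, had at least 21132 CPM in every Gas and at most 1134 CPM in every Sol library, and *Myh7*, the slow myosin, had at most 226 CPM in Gas and at least 4629 CPM in Sol. WT Gas replicate 3 lay far from the rest of the Gas set in a principal component analysis and had the highest ribosomal protein level of all (mean log2 CPM 8.46), and LSD1-mKO Gas replicate 5 (7.86) also lay above the remaining libraries (6.37 to 7.43). No batch is named in the labels, and muscle and any separate handling of Gas and Sol libraries cannot be told apart.

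In Gas, the alpha, beta and delta subunit mRNAs were higher in every LSD1-mKO library than in any WT library, with the widest gap for alpha. *Chrna1* had 18.2, 18.1 and 18.9 CPM in the WT Gas libraries and 217, 145, 76.4, 76.1 and 94.4 CPM in the LSD1-mKO Gas libraries. The WT values lay close together, while the LSD1-mKO values spread widely, with replicates 1 and 2 on top. The log2 fold change was 2.68 (SE 0.383), or 6.41-fold. *Chrnb1* had 26.8, 35.8 and 21.9 CPM in WT Gas and 60.5, 70.8, 54.4, 50.8 and 42.8 CPM in LSD1-mKO Gas. The log2 fold change of this beta subunit gene was 0.95 (SE 0.214), and the groups did not overlap.

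*Chrnd* was a low transcript in Gas, with 1.54, 1.32 and 0.520 CPM in WT and 6.18, 6.23, 4.46, 2.70 and 1.59 CPM in LSD1-mKO. The lowest LSD1-mKO library lay only just above the highest WT library, and the log2 fold change was 1.82 (SE 0.496). *Chrne*, the adult subunit, had 12.0, 9.18 and 7.49 CPM in WT Gas and 24.7, 21.9, 11.3, 13.7 and 14.6 CPM in LSD1-mKO Gas. Here the groups overlapped in 1 LSD1-mKO library, and the log2 fold change was 0.81 (SE 0.282). *Chrng*, the fetal subunit, was near the detection limit, with 0, 1 and 5 reads in WT Gas and 10, 6, 1, 0 and 10 reads in LSD1-mKO Gas, and it did not pass the filter on low counts. A count of 0 allows up to 0.139 CPM in WT Gas replicate 1 and 0.296 CPM in LSD1-mKO Gas replicate 4. Its pooled ratio in Gas was 2.64 (95% interval 1.07 to 7.82, covering counting error only, 6 WT and 27 LSD1-mKO reads), and 12.5 (2.05 to 510) without WT Gas replicate 3, so the size of a Gas difference could not be set at this depth.

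In Sol, alpha, beta, delta and gamma were higher in every LSD1-mKO library than in any WT library, and epsilon was not separated. *Chrna1* had 51.3, 52.0 and 54.6 CPM in WT Sol and 171, 109, 127, 71.7 and 96.9 CPM in LSD1-mKO Sol. As in Gas, the WT libraries were tight and the LSD1-mKO libraries spread, and the log2 fold change was 1.11 (SE 0.237). *Chrnb1* had 27.5, 21.5 and 21.3 CPM in WT Sol and 69.8, 77.1, 71.6, 81.2 and 72.3 CPM in LSD1-mKO Sol. This was the member with the least relative spread in LSD1-mKO Sol (74.4 ± 4.65 CPM, SD, n = 5), and its log2 fold change was 1.65 (SE 0.137), or 3.15-fold.

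The delta subunit gene *Chrnd* had 6.69, 3.68 and 6.03 CPM in WT Sol and 15.6, 10.1, 11.1, 10.9 and 10.6 CPM in LSD1-mKO Sol, a log2 fold change of 1.07 (SE 0.221). *Chrne* had 6.16, 8.60 and 5.97 CPM in WT Sol and 7.33, 6.97, 7.14, 8.43 and 8.43 CPM in LSD1-mKO Sol. Its log2 fold change in Sol was 0.13 (SE 0.182), with the WT range enclosing every LSD1-mKO library. *Chrng* had 2, 1 and 2 reads in WT Sol, at or under 0.116 CPM, and 158, 12, 41, 13 and 18 reads in LSD1-mKO Sol, or 5.44, 0.709, 1.75, 0.529 and 0.936 CPM. LSD1-mKO Sol replicate 1 held most of the *Chrng* reads. The pooled ratio was 21.5 (95% interval 9.10 to 66.9, counting error only) and 10.1 (4.14 to 31.8) without that library, and the fitted log2 fold change was 4.18 (SE 1.05).

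Without overlap between genotypes and higher in LSD1-mKO were 3 of the 4 members tested in Gas, beside 4.41% of the 13040 genes tested (2.53% were lower without overlap), and 4 of 5 in Sol, beside 6.27% of 13342 genes (4.59% lower). The median log2 fold change of the tested members was 1.38 in Gas (0.0103 over all genes) and 1.11 in Sol (-0.0108 over all genes). Because the members were chosen with this contrast known, and because *Chrng* passed the filter in Sol only through its reads in LSD1-mKO, nothing is read from these shares. In bulk tissue, fewer cells of a type and less RNA per cell cannot be told apart, nor can more transcribing nuclei and more RNA per nucleus.

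**Figure D1:**
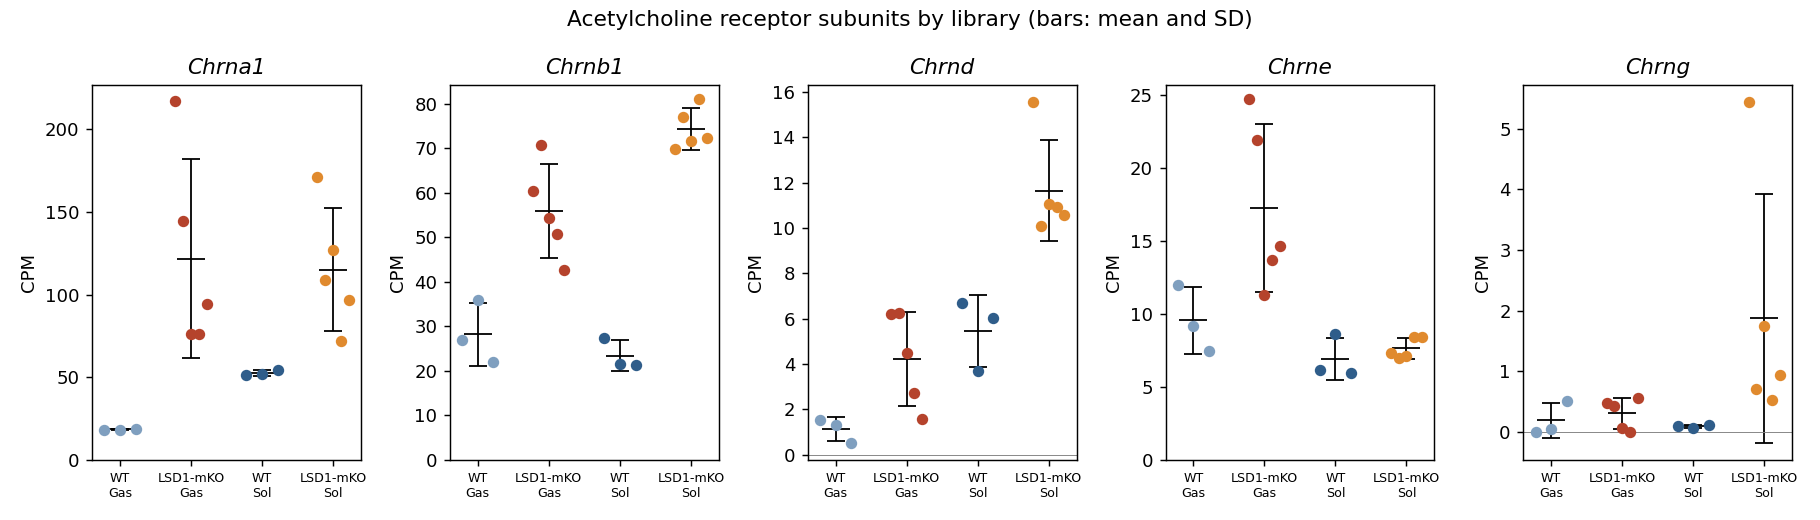
CPM of the 5 subunit genes in each library (points, in order of replicate number) of WT Gas, LSD1-mKO Gas, WT Sol and LSD1-mKO Sol, with the mean and SD of each group as bars and a separate linear axis per gene. *Chrna1*, *Chrnb1* and *Chrnd* are higher in every LSD1-mKO than in any WT library of the same muscle, *Chrne* overlaps in both muscles, and *Chrng* reaches 5.44 CPM in a single LSD1-mKO Sol library.

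The size of the genotype difference was estimated separately for the muscles. The log2 genotype difference in Sol minus that in Gas, from a fit of all 16 libraries, was -1.55 (SE 0.440) for *Chrna1*, -0.72 (SE 0.530) for *Chrnd* and -0.66 (SE 0.332) for *Chrne*. For *Chrnb1* it was 0.72 (SE 0.237), larger in Sol, and for *Chrng* 3.04 (SE 1.84). These differences are built from the contrasts that chose the members and were not tested.

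Sol and Gas were then compared within each genotype, a contrast that the choice of members did not name. It uses the same libraries as the genotype contrasts, so it is not independent of that choice. In WT, the alpha and delta subunit mRNAs were higher in Sol, beta and epsilon did not pass the test, and gamma had too few reads to judge. WT *Chrna1* was 2.82-fold higher in Sol than in Gas (log2 1.49, SE 0.354, edgeR adjusted p = 0.00834) and WT *Chrnd* 4.58-fold higher (log2 2.20, SE 0.442, edgeR adjusted p = 0.00264), both without overlap of the libraries. These 2 members stood beside 17.0% of the 13749 genes called in either direction and 8.75% called higher and 8.25% lower in Sol. When the fit also held each library's ribosomal protein level, the *Chrnd* difference was 1.26 (edgeR adjusted p = 0.0880; 1.97e-05 to 0.0880 over the alternatives) and *Chrnb1* was lower in Sol by the test (log2 -0.64, adjusted p = 0.0313, range 0.0313 to 0.509), against -0.28 (SE 0.188, adjusted p = 0.318) without the covariate. *Chrne* differed by -0.49 (SE 0.265, adjusted p = 0.215). *Chrng* had at most 5 reads in a WT library, so its value is given without a test: log2 -0.54 (SE 1.60), and 1.59 without WT Gas replicate 3.

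In LSD1-mKO, *Chrnb1*, *Chrnd* and *Chrne* passed the test between muscles, 24.5% of all genes did, and *Chrna1*, which had differed in WT, did not. *Chrnd* was higher in Sol (log2 1.48, SE 0.303, edgeR adjusted p = 0.00183) and *Chrne* was lower in Sol (log2 -1.15, SE 0.202, edgeR adjusted p = 0.00052), each without overlap. Across all genes 12.9% were called higher and 11.6% lower. *Chrng* entered this fit only through its reads in LSD1-mKO Sol, since no other library held more than 10, so its value is given without a test: log2 2.50 (SE 0.734), and 1.53 without LSD1-mKO Sol replicate 1. *Chrnb1* was called higher in Sol (log2 0.44, SE 0.144, edgeR adjusted p = 0.0356) with overlapping libraries, and with the replicate number as a block the value was 0.45 (adjusted p = 0.0516, within 0.0237 to 0.173 over the alternatives). That call was also lost on leaving out LSD1-mKO Gas replicate 3, 4 or 5, WT Sol replicate 1 or 3, or any LSD1-mKO Sol library (0.36 to 0.53 over all 16 fits, adjusted p 0.0167 to 0.110). *Chrna1* differed by -0.06 (SE 0.265, adjusted p = 0.899), with means of 122 ± 60.2 CPM in LSD1-mKO Gas and 115 ± 37.3 CPM in LSD1-mKO Sol (SD, n = 5). The WT and LSD1-mKO muscle differences are set side by side and their difference is the one given above.

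To compare levels between genes, CPM were divided by the exon length of the RefSeq-matched transcript, giving CPM per kilobase (RPKM). The lengths came from the GENCODE annotation, which may differ from the gene models used in counting, and the orders, ratios and shares that follow depend on them. With 4386 bases for *Chrna1* and 1591 for *Chrne*, alpha lay above epsilon in WT Gas by mean CPM (18.4 and 9.56) but below it by RPKM. In WT Gas, beta was the most abundant subunit mRNA (*Chrnb1*, 13.1 ± 3.27 RPKM), followed by epsilon (*Chrne*, 6.01 ± 1.43 RPKM) and alpha (*Chrna1*, 4.19 ± 0.108 RPKM), which did not overlap each other (SD, n = 3). Delta (*Chrnd*, 0.385 ± 0.184 RPKM) and gamma (*Chrng*, 0.0695 ± 0.102 RPKM) came last and overlapped. In WT Sol, alpha (12.0 ± 0.401 RPKM) and beta (10.9 ± 1.63 RPKM) overlapped at the top, ahead of epsilon (4.34 ± 0.922 RPKM), delta (1.87 ± 0.542 RPKM) and gamma (0.0351 ± 0.00891 RPKM).

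Alpha (27.7 ± 13.7 RPKM) and beta (25.9 ± 4.88 RPKM) overlapped at the top in LSD1-mKO Gas, above epsilon (10.8 ± 3.63 RPKM), delta (1.45 ± 0.709 RPKM) and gamma (0.111 ± 0.0918 RPKM; SD, n = 5). In LSD1-mKO Sol, beta (34.5 ± 2.16 RPKM) and alpha (26.3 ± 8.50 RPKM) overlapped, as did epsilon (4.81 ± 0.449 RPKM) and delta (3.98 ± 0.759 RPKM), and gamma had 0.674 ± 0.736 RPKM. The alpha to beta ratio per length was 0.248 to 0.424 in WT Gas and 0.689 to 1.76 in LSD1-mKO Gas, without overlap, whereas in Sol it was 0.918 to 1.26 in WT and 0.434 to 1.21 in LSD1-mKO. Relative to epsilon, alpha stood at 0.549 to 0.917 in WT Gas, 2.02 to 3.18 in LSD1-mKO Gas, 2.19 to 3.32 in WT Sol and 3.08 to 8.48 in LSD1-mKO Sol. These ratios rest on the same libraries as the genotype contrast and carry no test.

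**Figure D2:**
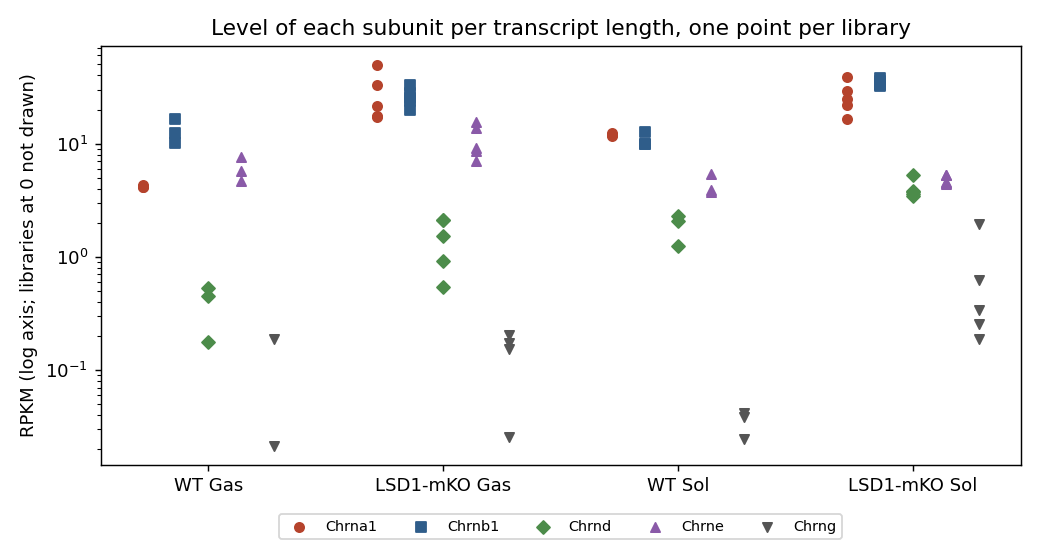
RPKM (log axis) of each subunit gene in each library of the 4 groups, one symbol per gene; libraries with 0 *Chrng* reads (1 WT Gas and 1 LSD1-mKO Gas library) cannot be drawn. *Chrnb1* leads in WT Gas, *Chrna1* and *Chrnb1* share the top in the other groups, and *Chrng* is lowest except beside *Chrnd* in WT Gas, where their libraries overlap.

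The fetal share, *Chrng* as a percent of *Chrng* plus *Chrne* RPKM, was 0%, 0.373% and 3.82% in WT Gas and 1.10%, 1.10%, 0.363%, 0% and 2.17% in LSD1-mKO Gas. It was 0.985%, 0.459% and 1.10% in WT Sol and 29.8%, 5.50%, 12.3%, 3.47% and 5.98% in LSD1-mKO Sol. All LSD1-mKO Sol libraries lay above all WT Sol libraries, epsilon remained the larger of the pair in each of them, and the Gas groups overlapped. In the Gas and WT Sol libraries the share rests on 0 to 10 *Chrng* reads, so differences among them were not detectable at this depth.

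**Figure D3:**
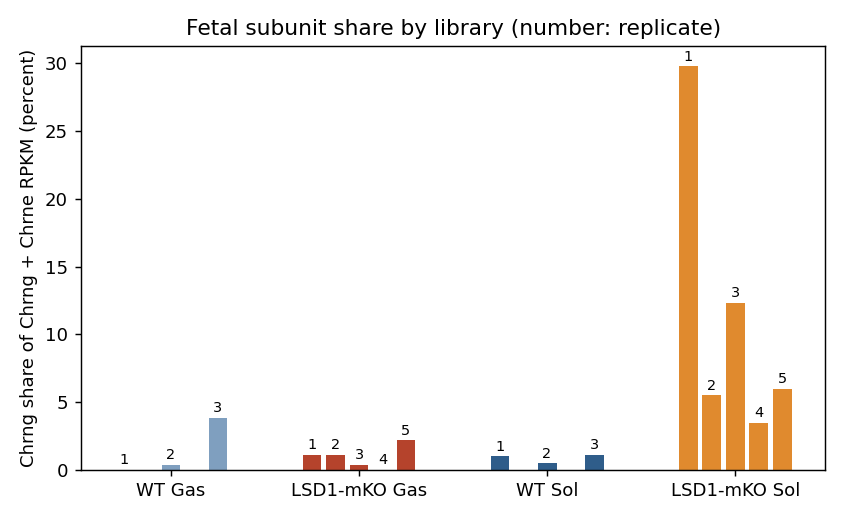
*Chrng* as a percent of the summed RPKM of *Chrng* and *Chrne*, one bar per library labelled with its replicate number, in the 4 groups. LSD1-mKO Sol libraries range from 3.47% to 29.8%, and all other libraries are at or below 3.82%.

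Within groups the members followed one another only in part. With log2 CPM centered within each of the 4 groups over the 16 libraries, Pearson's r was 0.74 for *Chrnb1* with *Chrnd*, 0.70 for *Chrna1* with *Chrng* and 0.53 for *Chrna1* with *Chrne*, while *Chrnb1* with *Chrng* gave -0.24. *Chrng* rests on 0 to 10 reads in the Gas and WT Sol libraries, so counting error enters its pairs. Among pairs without *Chrng* the lowest r was 0.19, for *Chrna1* with *Chrnb1*. These values describe pairs read from the same libraries, with depth in common. LSD1-mKO replicate 1 had the highest *Chrna1* level in both muscles and LSD1-mKO replicate 4 the lowest.

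The Gas libraries with the highest *Chrna1* and *Chrne* levels also stood out in Schwann cell and nerve markers. In LSD1-mKO Gas, the summed level of 9 Schwann cell and nerve markers, among them the myelin gene *Mbp*, was 417 and 309.7 CPM in replicates 1 and 2, in which *Chrna1* and *Chrne* were highest, against 109 to 184 CPM in the other LSD1-mKO Gas and 112 to 226 CPM in the WT Gas libraries. Of those markers, *Gfap* was at 0 in 3 LSD1-mKO Gas libraries. Without replicates 1 and 2 the log2 fold change in Gas was 2.13 for *Chrna1* (2.68 with them), 1.28 for *Chrnd* (1.82) and 0.44 for *Chrne* (0.81). In Sol the same markers summed to 79.1 to 168 CPM in WT and 108 to 168 CPM in LSD1-mKO. Of 10 satellite and regenerating cell markers 8 were measured, and *Des*, which muscle fibers also express, made up most of their sum. With *Des* left out they summed to 96.0 to 128 CPM in WT Sol and 191 to 348 CPM in LSD1-mKO Sol, and to 41.2 to 65.8 CPM in WT Gas and 59.99 to 175 CPM in LSD1-mKO Gas. By group median the largest part of that Sol sum was an embryonic myosin, *Myh3* (32.5 to 66.5 CPM in WT Sol and 94.8 to 260.3 CPM in LSD1-mKO Sol). In LSD1-mKO Sol replicates 1 to 5 that sum was 296, 214, 245, 348 and 191 CPM, and *Chrna1* had 171, 109, 127, 71.7 and 96.9 CPM. In replicate 4, with the highest sum and the lowest *Chrna1* level of its group, *Myh3* alone had 260.3 CPM. In LSD1-mKO Gas replicates 1 to 5 the sum without *Des* was 175, 124, 68.1, 59.99 and 132 CPM. *Chrna1* had 217, 145, 76.4, 76.1 and 94.4 CPM in the same Gas libraries. *Myh8*, the perinatal myosin, had 12.2 to 25.7 and 37.4 to 41.6 CPM in Sol and 3.22 to 13.1 and 16.7 to 73.5 CPM in Gas, without overlap. Of genes that define satellite cells, *Pax7* had 1.80 to 2.95 CPM in WT Sol and 3.03 to 3.85 CPM in LSD1-mKO Sol. *Cdh15* had 25.3 to 29.3 and 32.9 to 49.9 CPM, and neither gene overlapped in Sol. Both overlapped in Gas, where *Pax7* was at 0 in 1 WT library. *Myf5* (2.03 to 3.61 and 2.39 to 4.02 CPM in Sol) and *Calcr* (0.522 to 1.87 and 0.529 to 1.24 CPM) overlapped in both muscles. Fibroblast markers summed to 1535 to 1914 CPM in WT Gas and 939 to 1208 CPM in LSD1-mKO Gas, without overlap, and to 1002 to 1618 and 651 to 2162 CPM in Sol. The summed blood and immune cell markers overlapped in Gas (157 to 282 and 144 to 282 CPM) and in Sol (95.5 to 122 and 81.9 to 196 CPM), with *Lyz2* the largest part of the sum by the median in every group. Among their single genes, the macrophage marker *Cd68* was higher in LSD1-mKO without overlap in Gas (2.39 to 3.84 and 4.03 to 6.37 CPM) and in Sol (2.57 to 3.16 and 6.29 to 24.6 CPM), and *Itgam* in Sol (2.20 to 2.64 and 2.86 to 10.2 CPM). *Itgam* overlapped in Gas (3.82 to 4.32 and 2.95 to 4.53 CPM). Every other gene of that list overlapped in both muscles, *Adgre1* and *Csf1r* among them. The part of these cells in the subunit levels was not tested.

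Other genes of the endplate and of the response to lost activity were counted in 5 lists, which together hold 74 genes, 63 of them tested in each muscle. In Gas 0 of 63 were called by edgeR's quasi-likelihood test at an adjusted p under 0.05, beside 0.0307% of all genes (0.0153% in each direction), and 9 had an unadjusted p under 0.05, beside 9.06% of all genes. DESeq2 called 5 in Gas and edgeR's exact test called 4, and the share of all genes that these methods called was not counted. In Sol 5 of 63 were called, beside 0.967% of all genes, with 4 higher (0.787%) and 1 lower (0.180%), and 21 had an unadjusted p under 0.05, beside 15.5% of all genes. The lists too were chosen with earlier genotype results known, so their counts describe these libraries and support nothing further. The same holds for the genotype calls and adjusted p of single listed genes given below, which are no independent tests. Leaving out WT Sol replicate 1 brought the number called in Sol to 0, leaving out replicate 2 or 3 of the same group to 1, and leaving out LSD1-mKO Sol replicate 2 to 2. The median log2 fold change over the 63 genes was 0.22 in Gas and 0.13 in Sol.

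None of the 18 tested junction organizing genes was called in either muscle, where an unadjusted p under 0.05 was reached by 1 in Gas (9.06% of all genes) and 4 in Sol (15.5% of all genes). *Musk*, the kinase that starts receptor clustering, had log2 fold changes of 0.46 (SE 0.549) in Gas and -0.13 (SE 0.264) in Sol. *Rapsn*, the scaffold that anchors the receptor, had 0.35 (SE 0.230) and 0.13 (SE 0.187). *Ache*, which breaks acetylcholine down, had 0.86 (SE 0.454) and 0.64 (SE 0.215). The edgeR adjusted p of these 3 genes was 0.189 or above in both muscles.

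Among 9 synaptic transcription genes, 1 was called in Sol: *Etv4*, an ETS factor, had 5.22 to 6.59 CPM in WT Sol and 10.8 to 16.3 CPM in LSD1-mKO Sol, a log2 fold change of 1.04 (SE 0.191, edgeR adjusted p = 0.0323). In Gas its values were 2.97 to 3.85 and 6.11 to 13.6 CPM (log2 1.37, SE 0.299, edgeR adjusted p = 0.248). *Etv5*, its paralog at the endplate, had log2 values of 0.48 (SE 0.248) in Gas and 0.56 (SE 0.225) in Sol, with overlapping libraries.

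Of 18 activity-dependent regulators, 2 were called in Sol and 0 in Gas. *Dach2*, a corepressor that acts with histone deacetylases on myogenin and is known to fall when muscle is denervated, fell in Sol from 13.9 to 33.4 CPM in WT to 0.0344 to 4.06 CPM in LSD1-mKO (log2 -3.74, SE 0.739, edgeR adjusted p = 0.0412). In Gas it had 2.70 to 5.94 and 0.0479 to 0.481 CPM without overlap (log2 -3.91, SE 0.548, edgeR adjusted p = 0.0551). *Camk2b*, a calcium-dependent kinase, had 153 to 167 CPM in WT Sol and 254 to 312 CPM in LSD1-mKO Sol (log2 0.84, SE 0.127, edgeR adjusted p = 0.0155). *Myog*, the myogenic factor that binds E-boxes of the subunit genes, had log2 values of 1.78 (SE 0.826) in Gas and 1.67 (SE 0.621) in Sol and was not called (edgeR adjusted p = 0.555 and 0.231). It had 5.30 to 83.0 CPM in LSD1-mKO Gas and 6.61 to 48.8 CPM in LSD1-mKO Sol, with replicate 1 highest in both. *Hdac4*, a deacetylase induced by denervation, had 0.81 (SE 0.420) in Gas and 0.19 (SE 0.211) in Sol.

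Denervation-responsive genes gave 3 calls of 20 tested in Sol, *Dach2* among them, and 0 of 19 in Gas. *Kcnn3*, a potassium channel that appears in denervated fibers, had 1.32 to 2.61 CPM in WT Sol and 5.51 to 9.60 CPM in LSD1-mKO Sol (log2 1.89, SE 0.276, edgeR adjusted p = 0.0155). *Mybph*, a myosin-binding protein gene, had 0.870 to 1.53 CPM in WT Sol and 15.5 to 146 CPM in LSD1-mKO Sol (log2 5.63, SE 0.847, edgeR adjusted p = 0.0155), while in Gas its libraries overlapped at 26.7 to 257 and 87.4 to 380 CPM. *Myh3*, the embryonic myosin, had log2 values of 0.45 (SE 0.373) in Gas and 1.47 (SE 0.343, edgeR adjusted p = 0.0712) in Sol. Of the 11 other nicotinic subunit genes, those of neurons and other cells, 3 were tested in Gas and 2 in Sol, and none was called.

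**Figure D4:**
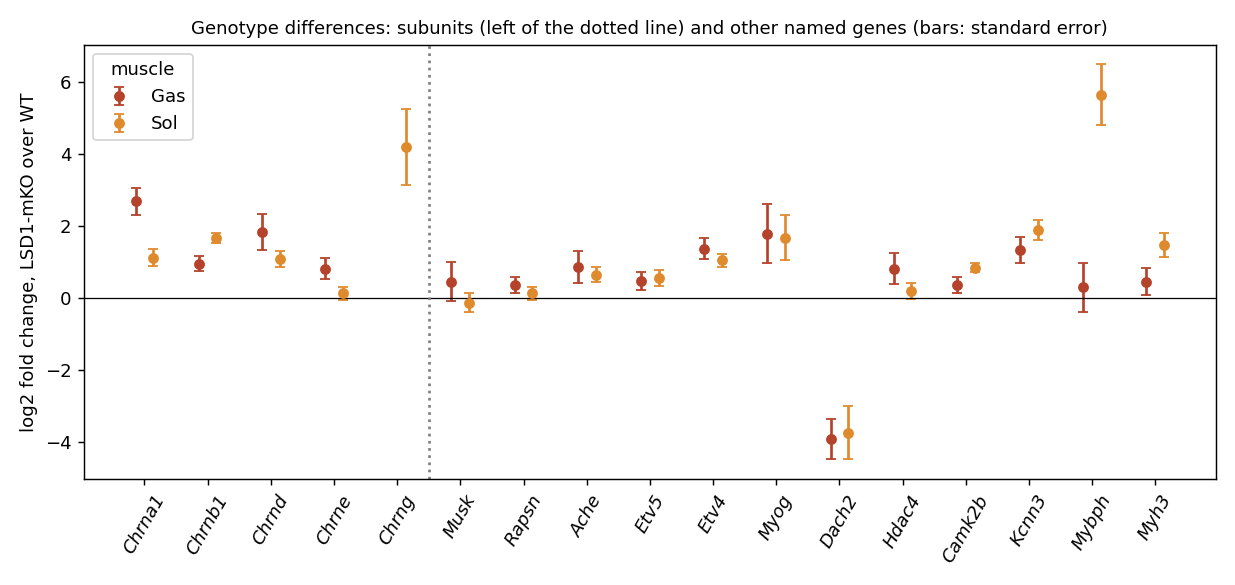
Log2 fold change of LSD1-mKO over WT with its standard error in Gas and Sol, for the subunit genes (left of the dotted line, *Chrng* in Sol only, since it was not tested in Gas) and for named genes of the 5 lists. *Dach2* lies near -3.9 in Gas and -3.7 in Sol, *Mybph* is at 5.63 in Sol, and *Musk*, *Rapsn* and *Chrne* lie nearest to 0 in Sol.

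Across all genes tested in both muscles, those most like the members were found by Pearson's r with the mean of the 4 subunits tested in both, using log2 CPM centered within each muscle over the 16 libraries. From 12839 genes, *Ttc13* (r = 0.971), *C2cd5* (0.962), *Atp9a* (0.956), *Nlrc3* (0.954) and *Abca4* (0.951) ranked highest. The genotype difference, depth and library makeup are common to all points, so r is given as a description. *Atp9a*, a phospholipid flippase, had 31.3 to 54.8 CPM in WT and 83.6 to 197 CPM in LSD1-mKO Gas, and 75.7 to 92.9 and 134 to 248 CPM in Sol. *Abca4*, a lipid transporter best known from photoreceptors, had 1.56 to 2.58 and 5.62 to 15.7 CPM in Gas and 0.416 to 0.580 and 0.886 to 2.37 CPM in Sol. *Ttc13* differed least of the 5 between genotypes, by 0.47 (SE 0.171) in Gas and 0.35 (SE 0.124) in Sol on the log2 scale.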

How the data were processed

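Poly(A) RNA from Gas and Sol was sequenced as 75 bp single-end reads. Per the file headers and the submitters' processing notes, the authors aligned reads to mm10 with STAR and counted them per gene symbol with featureCounts 1.5.2. The deposited counts are raw read counts. The authors' tables of comparisons (fold changes and p-values) were not used. Strand was not stated, so reads of *Chrne* and its antisense neighbor cannot be told apart. Groups came from the labels. The study counts its Sol groups in mice, but the labels name no animal for a library, so p-values measure the spread between libraries, which may be technical.

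Counts were analysed with edgeR 4.0.16 in R 4.3.3: filterByExpr (minimum count 10), TMM scaling and the two-sided quasi-likelihood F-test, with Benjamini-Hochberg adjustment over all genes tested and a threshold of 0.05. The SE is the log2 fold change over the root of F. Genotype fits used the 8 libraries of a muscle, and muscle contrasts used all 16. CPM were TMM-scaled over all 16 libraries, and limits for 0 reads (3 counts of the library total) were not scaled. Intervals cover counting error only. Tests were checked on simulated counts. Members and lists were chosen with earlier results of these data known. The text names the members, *Kdm1a*, listed genes called in either muscle, 8 listed genes called or not, and the 5 genes most like the members. Marker genes are named as defining genes of their lists, and 1 gene of the Schwann cell and nerve list is not reported here and was left out of its sums. Same-numbered Gas and Sol libraries of LSD1-mKO deviated from their group means together (r 0.260 to 0.399), those of WT did not (r -0.572 to 0.140), and the first is a hint from the data, not from the labels, that a number marks one mouse.

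DESeq2 1.42.0, RLE scaling, no filter, a ribosomal protein covariate, the replicate block, the exact test and leaving out each library were alternatives. Leaving out libraries with high ribosomal protein or Schwann cell markers was chosen after seeing the data.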

Additional observations from a re-analysis of the deposited data

Results flagged for a closer look

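Within the groups of 5, a library was picked out where its gap to the nearest other library was large against the range of the group (Dixon's criterion at 95%). The criterion holds for normally distributed values, which was not checked for these CPM and ratios, and about 2.7 of 54 combinations would meet it by chance under that condition. Of 54 gene or ratio and group combinations examined, which share libraries, 7 met it, each with a library above the others of its group. LSD1-mKO Sol replicate 1 accounted for 4 of them. In that library *Chrnd* had 15.6 CPM (the others 10.1 to 11.1 CPM, gap over range 0.822), *Chrng* 5.44 CPM (0.529 to 1.75, gap 0.751), *Ache* 28.1 CPM (14.02 to 17.4, gap 0.763) and *Myog* 48.8 CPM (6.61 to 13.3, gap 0.841). *Myog* also stood apart in LSD1-mKO Gas replicate 1, at 83.0 CPM against 5.30 to 23.3 CPM (gap 0.768). *Hdac4* had 18.8 CPM in LSD1-mKO Sol replicate 3 against 11.1 to 12.6 CPM (gap 0.805). *Myh3* had 16.2 CPM in LSD1-mKO Gas replicate 2 against 5.20 to 8.05 CPM (gap 0.741).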

How the results depend on the processing

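Of 9 genotype values of the members, none changed sign under any of 53 alternatives or 72 fits without a library. *Chrna1* in Gas was 2.13, *Chrnd* 1.28 and *Chrne* 0.44 without LSD1-mKO Gas replicates 1 and 2, and *Chrne* in Sol ranged from 0.052 to 0.34 when single libraries were left out, the highest without WT Sol replicate 2. *Chrng* in Gas, not tested otherwise, was 0.97 without the filter. RLE scaling moved the median of all genes by -0.0087 in Gas and -0.00011 in Sol (log2).

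Between muscles, *Chrnb1* in LSD1-mKO was no longer called without the filter (0.41) or with the ribosomal protein covariate (0.24). With that covariate *Chrnd* in WT was 1.26, no longer called, *Chrnb1* in WT was -0.64, newly called, and 2 values that were not called changed sign: *Chrng* in WT to 1.97 and *Chrna1* in LSD1-mKO to 0.047. It also moved *Chrng* in LSD1-mKO from 2.50 to 3.89. *Chrng* in WT was also positive without the libraries high in ribosomal protein (1.76) and without WT Gas replicate 3 (1.59, range -1.31 to 1.59). *Chrna1* in LSD1-mKO was positive with LSD1-mKO Gas replicate 1 (0.25) or 2 (0.0072) or LSD1-mKO Sol replicate 4 (0.049) left out (range -0.27 to 0.25). Left-out fits spanned 0.36 to 0.53 for *Chrnb1* and 1.53 to 2.80 for *Chrng* in LSD1-mKO. The causes were not tested, except that a left-out fit has fewer libraries.

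Listed genes called in Gas (0) numbered 1 without the filter, 5 with DESeq2 and 4 with the exact test. In Sol (5) they numbered 8 without the filter, 8 with DESeq2, 8 with the exact test and 0 to 7 with a library left out. The share of all genes called was not counted under these settings, so nothing is read from the changes.

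Same-numbered WT and LSD1-mKO libraries gave r of mixed sign (-0.185 to 0.333 in Gas and -0.0076 to 0.152 in Sol). No r for unlike numbers was set beside them, so these values do not settle whether the number marks a pairing within a muscle. With it as a replicate block, 0 listed genes were called in Gas and 10 in Sol, again without a share over all genes. Paired across muscles, the block gave 0.45 for *Chrnb1* in LSD1-mKO, no longer called, and 0.0036 for *Chrna1* in LSD1-mKO, with the sign turned, and it changed no other call of a member. *Chrng* in Gas and WT Sol rests on few reads, which limits any statement on it.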
